A study of Mus musculus with 4 samples.

Results

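The genes of the ATF4 stress response and the amino acid transporters tied to it were read in stimulated mouse CD4+ T cells that did or did not express a cleavage-resistant form of Regnase-1. The members were 10 named genes of the 16142 in the deposited expression table: Atf4, Ddit3, Trib3, Chac1 and Asns for the stress response, and Slc7a11, Slc7a5, Slc3a2, Slc7a1 and Slc1a5 for transport. They were taken by gene symbol and all 10 were present. RNA-seq had been made from 2 libraries of WT CD4+ T cells, from wild type B6 mice, and 2 libraries of R111A CD4+ T cells, from Cd4CreERT2 LSL-R111A fl/fl mice on the C57BL/6 background. In the latter, tamoxifen removes a STOP cassette in cells with Cd4-driven Cre, and the CAG promoter at Rosa26 then drives the R111A mutant, which MALT1 cannot cleave, together with EGFP. The protocol attached to all 4 libraries gives tamoxifen at 75 mg/kg by intraperitoneal injection for 5 days, in wording that can be read with or without the WT mice. Age is not in the labels, and the methods of the study give 6 to 12 weeks, with both sexes, unless noted otherwise. Spleen CD4+ T cells were purified, sorted by FACS and activated over 12 h by anti-CD3 (5 µg/mL) plus anti-CD28 (1 µg/mL). Nothing states whether the 2 libraries of a group came from separate animals, so the p-values measure only the spread between these samples, which may be technical.

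ATF4 is a bZIP transcription factor that sits at the end of the integrated stress response. When a kinase phosphorylates the translation factor eIF2, general protein synthesis drops while Atf4 mRNA, which carries upstream open reading frames, is translated more, so ATF4 is largely controlled at a step that mRNA levels do not show. Its known targets include genes for amino acid synthesis, amino acid uptake and tRNA charging, and activated T cells depend on the same transporters to supply growth.

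Values were FPKM, a read count divided by transcript length and library size, so that levels can be compared between genes. They summed to 801475 in WT replicate 1, 836143 in WT replicate 2, 1053551 in R111A replicate 1 and 1012215 in R111A replicate 2. Read numbers are not known, but steps among low values put WT replicate 1 at the depth of WT replicate 2 (1.00 times) and slightly above R111A replicates 1 and 2 (1.06 and 1.19 times). For the 1938 genes that averaged 50 FPKM or more, log2 ratios had an SD of 0.126 between the WT libraries and 0.319 between the R111A libraries, against 0.597 to 0.640 between groups. Differences were tested with limma on log2(FPKM + 1) across 9831 genes, those averaging 1 FPKM or more, with Benjamini-Hochberg adjustment, and fold changes on that scale understate the change of low genes.

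Zc3h12a, which encodes Regnase-1, was at 17.0 and 15.7 FPKM in the WT libraries and at 196 and 131 FPKM in the R111A libraries. Both R111A libraries thus lay far above both WT libraries, as their labels say (log2 fold change 3.22, standard error, SE, 0.19, adjusted p = 9.2e-06 from limma), although transcripts of the endogenous gene and of the transgene are counted together here. All 8 T cell markers were abundant, with summed levels of 2130 and 2173 FPKM in WT libraries, against 2027 and 1912 FPKM in R111A libraries, led by Cd3g in WT and by Lat in R111A. Cd4 itself fell from 158 and 131 FPKM to 70.7 and 51.4 FPKM, and Cd8a was at most 0.20 FPKM in any library.

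Markers of several other cell types were low but moved with the group. The 5 erythroid markers summed to 0.66 and 0.70 FPKM in WT libraries, against 12.93 and 12.97 FPKM in R111A libraries, nearly all from Hba-a1 (12.3 and 11.7 FPKM), with Hbb-bs at 0 in all 4 libraries. The 8 myeloid markers summed to 1.32 and 1.47 FPKM in WT libraries, against 9.84 and 7.04 FPKM in R111A libraries, led by Fcer1g. Lyz2 went from 0.45 and 0 FPKM to 3.01 and 2.37 FPKM, and Adgre1 from 0.04 and 0.04 FPKM to 0.77 and 1.04 FPKM. Itgam went from 0 and 0.03 FPKM to 0.54 and 0.39 FPKM. S100a8 overlapped between the groups, S100a9 was at 0 and Csf1r at most 0.07 FPKM. The 4 NK markers summed to 0.93 and 0.82 FPKM against 7.30 and 4.91 FPKM, led by Eomes, which T cells also make, while Ncr1 was at most 0.30 FPKM. The 2 CD8 markers summed to 7.31 and 6.76 FPKM against 3.88 and 4.46 FPKM, led by Cd8b1. The 4 Treg markers were not low, with sums of 158 and 151 FPKM against 134 and 136 FPKM, nearly all from Il2ra. Il2ra was at 140 and 136 FPKM against 127 and 129 FPKM and did not pass the test (adjusted p = 0.47 from limma). Foxp3 fell from 11.3 and 8.78 FPKM to 2.86 and 1.86 FPKM. The part of such cells in the differences described here was not tested, and in bulk RNA a smaller share of cells making a transcript and less of it per cell cannot be told apart.

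Atf4 was among the most abundant transcripts and overlapped between the groups. Atf4 (NCBI gene 11911; chr15:80255184-80257545 of GRCm38, the assembly of mm10) was at 265 and 268 FPKM in WT libraries, against 266 and 259 FPKM in R111A libraries. The groups overlapped, and the 4 libraries lay within a narrow band near the top of the range, above 96.1% of the genes tested in WT and 96.6% in R111A. The log2 fold change was -0.02 (SE 0.12, adjusted p = 0.88 from limma).

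How Atf4 is called depends on the scale. Because the FPKM sums were larger in R111A, rescaling each library to the same sum (TPM) moved the median log2 fold change of all genes from -0.12 to -0.42, and the share of higher genes among those called from 39.8% to 20.8%, so that 13.6% of the genes tested were higher and 51.8% lower. On that scale Atf4 was lower by limma (log2 fold change -0.36, adjusted p = 0.026, against up to 0.92 under the other settings with all 4 libraries). Relative to the median of all genes it was at 0.09 in FPKM and 0.06 in TPM, so it lay close to that median on either scale. Under median-of-ratios factors or quantile normalization its log2 fold change was above 0, at 0.07 and 0.20, and not past the threshold.

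**Figure D1:**
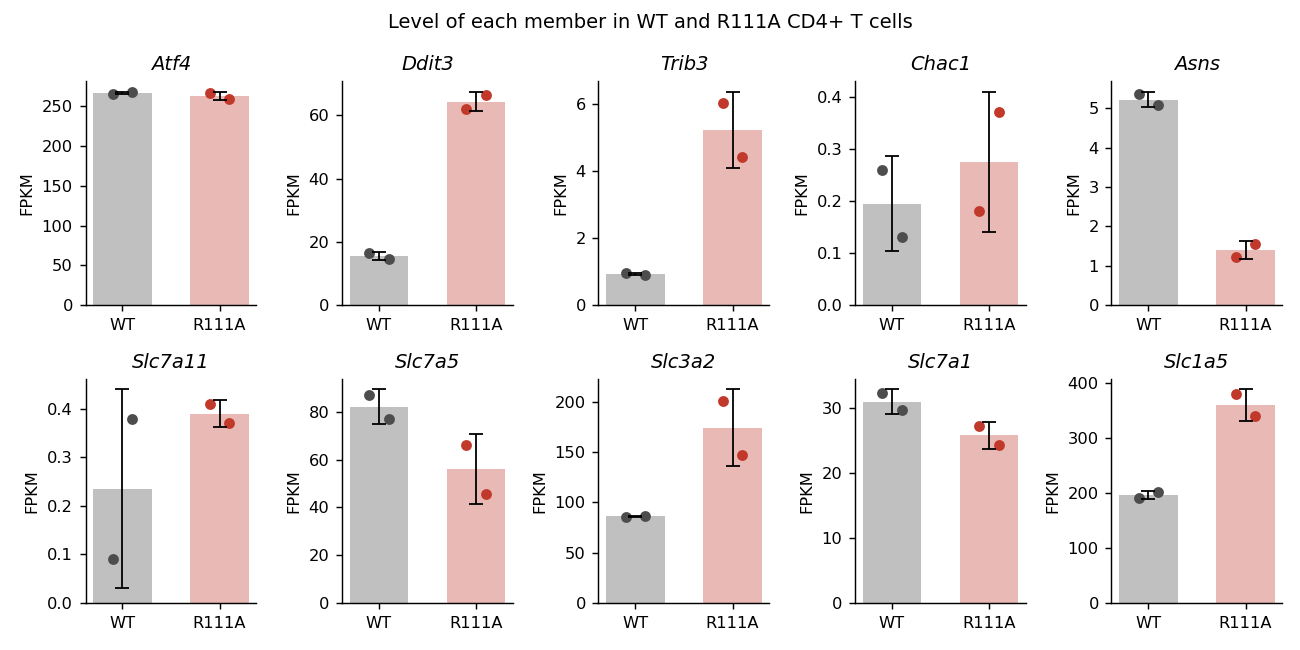
FPKM of the 10 members in WT and R111A CD4+ T cells, with 1 point for each library, bars at the group mean and error bars for the SD (n = 2 libraries a group), each panel on its own axis from 0. Ddit3, Trib3, Slc3a2 and Slc1a5 were higher in both R111A libraries, Asns, Slc7a5 and Slc7a1 were lower, and Atf4, Chac1 and Slc7a11 overlapped between the groups.

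The known targets of ATF4 among the stress members went in opposite directions. Ddit3, which encodes CHOP, a bZIP factor linked to cell death under lasting stress (NCBI gene 13198; chr10:127290793-127296291), was at 16.4 and 14.7 FPKM in WT libraries, against 62.2 and 66.6 FPKM in R111A libraries. Both R111A libraries were about 4 times as high as either WT library, with a gap far wider than the spread within a group, and the mean went from 15.5 ± 1.24 to 64.4 ± 3.12 FPKM (SD, n = 2 libraries each). The log2 fold change was 1.98 (SE 0.13, adjusted p = 1.5e-05 from limma). Ddit3 thereby went from the middle of the genes tested, above 50.8% of them in WT, to above 85.8% of them in R111A.

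Trib3, a pseudokinase that binds ATF4 and CHOP and restrains them (NCBI gene 228775; chr2:152337425-152344060), was at 0.96 and 0.91 FPKM in WT libraries, against 6.02 and 4.41 FPKM in R111A libraries. The WT libraries were both below 1 FPKM, so Trib3 entered the test only through the R111A libraries, both of which were higher. Its log2 fold change was 1.67 (SE 0.16, adjusted p = 8e-05 from limma), while the means themselves differed by 5.58-fold.

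Asns, the enzyme that makes asparagine from aspartate and glutamine (NCBI gene 27053; chr6:7675165-7693209), was at 5.36 and 5.08 FPKM in WT libraries, against 1.23 and 1.56 FPKM in R111A libraries. It was low in all 4 libraries and lower in both R111A libraries, without overlap. The log2 fold change was -1.38 (SE 0.14, adjusted p = 0.00011 from limma), and the means differed by 3.74-fold. Asns fell while Ddit3 rose, so that the ratio of Ddit3 to Asns within a library, which no factor applied to a whole library can alter, was 3.06 and 2.88 in WT and 50.5 and 42.7 in R111A.

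Chac1, which degrades glutathione, was close to absent in every library, at 0.26 and 0.13 FPKM in WT libraries, against 0.18 and 0.37 FPKM in R111A libraries. Its groups overlapped. With a mean below 1 FPKM it was not tested, and a difference was not detectable at these levels. The same held for Slc7a11, the cystine light chain of system xc-, at 0.09 and 0.38 FPKM in WT libraries, against 0.41 and 0.37 FPKM in R111A libraries. These cells therefore carried hardly any transcript of either gene in these libraries, whichever the genotype.

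The element through which ATF4 and C/EBP factors act, TGATGNAA, was looked for on both strands of RefSeq promoter windows (GRCm38.p6, 250 bases before to 50 after a start site). Windows were held for 8 members, all but Slc7a5 and Slc1a5, and 4 of them had a match, Trib3, Chac1, Asns and Slc7a11. Of all 27025 genes with a window 4.51% had a match, as had 2.62% of the 8041 tested genes with a window. The members were chosen as genes tied to ATF4, so a higher share is built into the choice. The stretches upstream of a start site are shown because these genes carry the same letters and had different levels, 5′ to 3′ on the strand of the gene, with the matches in capitals.
Asns, chr6:7693214-7693243, minus strand: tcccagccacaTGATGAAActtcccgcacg
Chac1, chr2:119351038-119351067, plus strand: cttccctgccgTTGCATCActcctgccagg
Slc7a11, chr3:50443651-50443680, minus strand: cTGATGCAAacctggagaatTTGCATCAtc
Asns, which fell, had its match 23 bases before the start site and Chac1, which was nearly silent, had one on the opposite strand 193 bases before it. Slc7a11 held a pair facing each other, 66 and 47 bases before a start site that lies inside the span of the gene. In Trib3, which rose, the match lay 14 bases after the start site, in the transcript. Atf4, Ddit3, Slc3a2 and Slc7a1 had no match in these windows. Genes with the letters were thus among the higher, the lower and the barely detected members, and a match is a description of the sequence alone.

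The transporters also split. Slc3a2, the heavy chain (CD98, 4F2hc) that carries several amino acid transporters to the cell surface (NCBI gene 17254; chr19:8706882-8723369), was at 85.6 and 86.8 FPKM in WT libraries, against 201 and 147 FPKM in R111A libraries. Both R111A libraries were well above WT, although they differed more from each other than the WT libraries did. The log2 fold change was 0.99 (SE 0.16, adjusted p = 0.0012 from limma), just short of 2-fold, and it was 0.77 without R111A replicate 1 and 1.21 without R111A replicate 2.

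Slc1a5, the glutamine transporter ASCT2 (NCBI gene 20514; chr7:16781334-16798274), was at 191 and 201 FPKM in WT libraries, against 380 and 339 FPKM in R111A libraries. It was the most abundant transporter of the members in all 4 libraries and rose in both R111A libraries (log2 fold change 0.87, SE 0.13, adjusted p = 0.00063 from limma). Unlike Ddit3, whose mean rose 4.14-fold, Slc1a5 rose 1.83-fold.

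Slc7a5, the LAT1 light chain that imports leucine and other large neutral amino acids as a partner of Slc3a2 (NCBI gene 20539; chr8:121881146-121907686), was at 87.3 and 76.9 FPKM in WT libraries, against 66.3 and 45.8 FPKM in R111A libraries. The groups did not overlap, but the spread within each was wide and R111A replicate 2 was the lowest. The log2 fold change was -0.56 (SE 0.18, adjusted p = 0.029 from limma). The call was lost in 3 settings, median-of-ratios factors (adjusted p = 0.065), quantile normalization (adjusted p = 0.17) and the fit to unfiltered genes (adjusted p = 0.099), while in TPM it was at its lowest, 0.0006. It was also lost without WT replicate 1 (log2 fold change -0.47, adjusted p = 0.17) and without R111A replicate 2 (log2 fold change -0.30, adjusted p = 0.058). Relative to the median of all genes, Slc7a5 was at -0.45 in FPKM and -0.48 in TPM.

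Slc7a1, the cationic amino acid transporter CAT1 that takes up arginine (NCBI gene 11987; chr5:148327410-148399904), was at 32.4 and 29.7 FPKM in WT libraries, against 27.3 and 24.3 FPKM in R111A libraries. Its groups did not overlap, but the difference was small (log2 fold change -0.26, SE 0.14) and did not pass the threshold (adjusted p = 0.14 from limma). It passed in TPM (log2 fold change -0.58, adjusted p = 0.0044, against up to 0.35 under the other settings with all 4 libraries) and without R111A replicate 1 (log2 fold change -0.34, adjusted p = 0.031). Relative to the median of all genes it was at -0.14 in FPKM and -0.16 in TPM.

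In all, 8 members passed the filter on low values. By limma, 4 members were higher (Ddit3, Trib3, Slc3a2 and Slc1a5), where 21.2% of all genes tested were, and 2 were lower (Asns and Slc7a5), where 32.1% were. With a 2-fold threshold added, Ddit3 and Trib3 were higher, against 8.52% of all genes, and Asns was lower, against 8.34%. Trib3 is counted although its WT mean was below 1 FPKM, as were those of 244 of the 838 genes higher by 2-fold. Among the 9300 genes with both group means at 1 FPKM or more, a filter chosen after seeing the data, Ddit3 alone of 7 members was higher by 2-fold, against 6.39%. With a pseudocount of 5 FPKM the members past 2-fold were 1 higher and 0 lower, where 386 and 402 of all 9831 genes were. The higher ones were 3 with median-of-ratios factors, where Slc3a2 joined and 932 of all genes were higher by 2-fold. They were 4 after quantile normalization, where Slc3a2 and Slc1a5 joined and 837 of all genes were. Without R111A replicate 2 the log2 fold change of Slc3a2 was 1.21. In TPM the counts without the 2-fold threshold were 4 higher and 4 lower, since Atf4 and Slc7a1 joined Asns and Slc7a5, on a scale where 13.6% of all genes were higher and 51.8% lower. Since the share of genes called in these libraries was that high, a call alone does not set a member apart. The median log2 fold change of the 8 was 0.42, against -0.12 over all genes, and -0.02 for the 7 without Trib3. In TPM it was 0.09 for the 8, against -0.42 over all genes. That of the tested stress members was 0.82, 0.56 in TPM and -0.02 without Trib3, and that of the transporter members 0.31, and -0.02 in TPM.

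**Figure D2:**
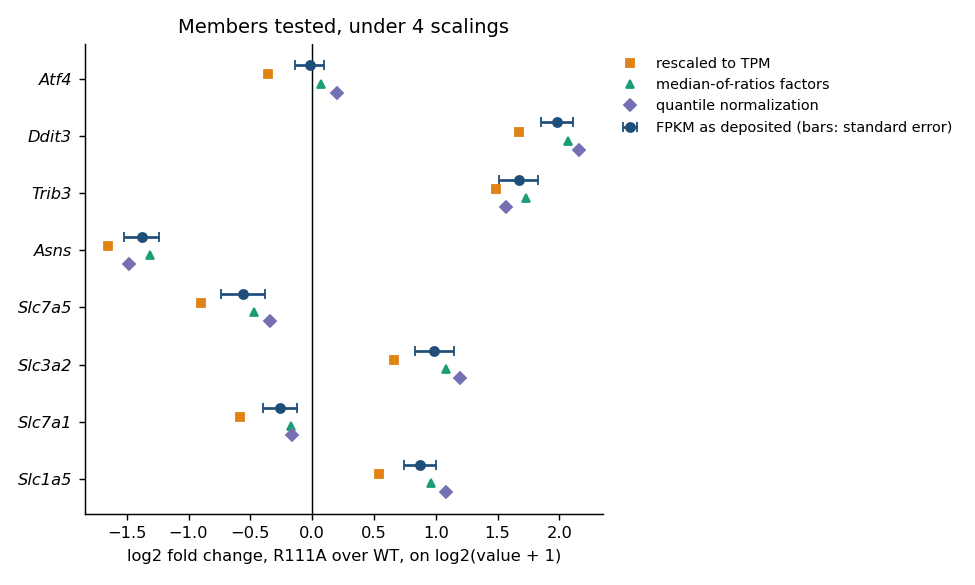
Log2 fold change of R111A over WT for the 8 members tested, from FPKM as deposited (circles, with the SE) and after 3 other scalings (TPM, median-of-ratios factors and quantile normalization). Ddit3, Trib3, Slc3a2 and Slc1a5 were above 0 and Asns, Slc7a5 and Slc7a1 below 0 in all 4, while Atf4 was below 0 in FPKM and TPM and above 0 in the other 2.

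The opposite moves of Slc3a2 and Slc7a5 changed the balance of the heterodimer's transcripts. In WT the ratio of Slc3a2 to Slc7a5 was 0.981 and 1.13, near parity, and in R111A it was 3.04 and 3.22. The ranges were far apart, and since both genes were read in the same library the ratio does not depend on a library-wide factor. The mean log2 ratio differed by 1.57, against an SD of 0.14 between the WT libraries and 0.06 between the R111A libraries. With 2 libraries against 2, an exact permutation test gives a two-sided p = 0.333, the smallest this design allows.

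The other light chains were not higher in sum. Slc3a2 also pairs with Slc7a6, Slc7a7, Slc7a8, Slc7a10 and Slc7a11, and the 6 light chains together summed to 124 and 113 FPKM in WT libraries, against 87.3 and 69.4 FPKM in R111A libraries. Slc7a5 gave from 66.0% to 75.9% of that sum in the 4 libraries, and Slc7a6, which exchanges cationic and neutral amino acids, gave most of the rest. Slc3a2 was below the sum in WT, at 0.689 and 0.767 times, and above it in R111A, at 2.30 and 2.12 times. These are transcript levels, and protein at the surface was not measured here. The ratio of Slc1a5 to Slc7a5, the glutamine importer over the leucine importer, went from 2.19 and 2.61 to 5.73 and 7.42, again without overlap.

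**Figure D3:**
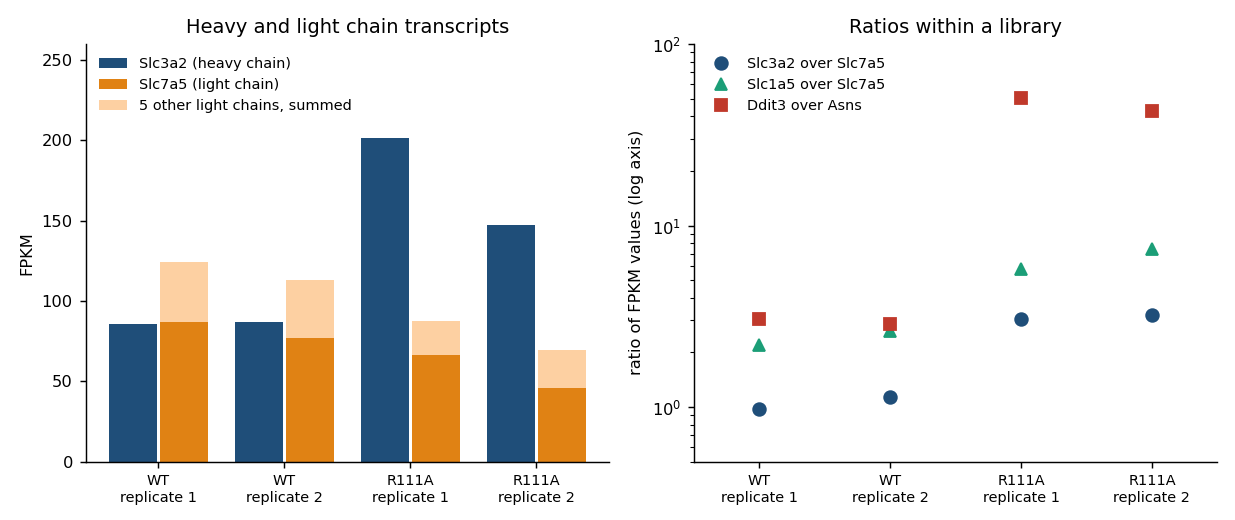
Left, FPKM of the heavy chain Slc3a2 beside the light chains that pair with it (Slc7a5 and the sum of 5 others) in each library. Right, ratios of FPKM values within each library on a log axis, where Slc3a2 over Slc7a5 was 0.981 and 1.13 in WT and 3.04 and 3.22 in R111A, and Ddit3 over Asns was 3.06 and 2.88 in WT and 50.5 and 42.7 in R111A.

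The order of the members by level also differed. In WT it ran from Atf4 and Slc1a5 through Slc3a2 and Slc7a5, which overlapped, to Slc7a1, Ddit3, Asns and Trib3, with Slc7a11 and Chac1 overlapping at the bottom. In R111A Slc1a5 stood above Atf4, followed by Slc3a2, then Ddit3 and Slc7a5, which overlapped, and then Slc7a1, Trib3 and Asns, with Slc7a11 and Chac1 touching at 0.37 FPKM. Ddit3 had passed Slc7a1 and Trib3 had passed Asns.

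Among the genes upstream of ATF4, the eIF2 kinases did not move together. Eif2ak3 (PERK), the kinase that senses stress in the endoplasmic reticulum, was at 4.52 and 4.02 FPKM in WT libraries, against 10.6 and 9.28 FPKM in R111A libraries, a log2 fold change of 1.05 (SE 0.15, adjusted p = 0.00051 from limma). Eif2ak4 (GCN2), the sensor of uncharged tRNA, went the other way, from 7.83 and 7.54 FPKM to 4.60 and 4.83 FPKM (log2 fold change -0.60, SE 0.14, adjusted p = 0.0061 from limma). The groups of both genes were well separated, but the call of Eif2ak4 was lost without WT replicate 1 (adjusted p = 0.096) or WT replicate 2 (adjusted p = 0.068). Eif2ak1 (HRI), at 32.3 and 27.7 FPKM in WT libraries, against 30.4 and 25.2 FPKM in R111A libraries, and Eif2ak2 (PKR), at 1.98 and 1.77 FPKM in WT libraries, against 1.88 and 2.54 FPKM in R111A libraries, overlapped between groups.

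Ppp1r15a (GADD34), the stress-induced subunit that directs the phosphatase to eIF2, was at 22.5 and 23.9 FPKM in WT libraries, against 73.3 and 49.8 FPKM in R111A libraries. Both R111A libraries were at least 2 times as high as either WT library (log2 fold change 1.34, SE 0.18, adjusted p = 0.00048 from limma). Over the list of 14 kinases, eIF2 and eIF2B subunits and phosphatase subunits, 2 were higher, Eif2ak3 and Ppp1r15a, and 6 were lower, with a median of -0.39 beside -0.12 for all genes, of which 21.2% were higher and 32.1% lower. Without WT replicate 1 or WT replicate 2 the median of the list was -0.44 or -0.35, beside -0.12 for all genes in each fit. Fewer genes of the list, and of all genes, were called lower in these fits. The lower ones included the eIF2 subunit Eif2s3x (182 and 186 FPKM against 79.5 and 104 FPKM) and the eIF2B subunit Eif2b4 (51.2 and 52.8 FPKM against 34.9 and 26.1 FPKM). In TPM 2 were higher and 11 lower, where 13.6% of all genes were higher and 51.8% lower. After quantile normalization 2 were higher and 4 lower, where 23.6% and 26.7% of all genes were. The median of the list was then -0.17, beside -0.04 for all genes.

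Of 11 dimer partners and co-regulators of ATF4, 7 were tested and 4 were called. Atf3, itself a known ATF4 target, was at 12.1 and 10.4 FPKM in WT libraries, against 12.3 and 10.5 FPKM in R111A libraries, almost the same values in both groups. Atf5 (3.12 and 2.74 FPKM against 4.20 and 3.10 FPKM) and the partner Cebpg (12.3 and 13.9 FPKM against 11.2 and 13.9 FPKM) overlapped as well, although Atf5 passed without R111A replicate 2 (log2 fold change 0.41, adjusted p = 0.032). Cebpb was lower, from 5.66 and 5.99 FPKM to 4.47 and 2.67 FPKM (log2 fold change -0.61, adjusted p = 0.029 from limma), a call lost without WT replicate 1 (adjusted p = 0.053) or WT replicate 2 (adjusted p = 0.088) and with median-of-ratios factors (adjusted p = 0.055). Its adjusted p ranged up to 0.11, with no filter, and its log2 fold change was -0.89 without R111A replicate 1 and -0.32 without R111A replicate 2.

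Of these 7 genes, 3 were higher, Trib1, Trib2 and Nfe2l2, and Cebpb alone was lower, against 1 in each direction in TPM, beside 21.2% and 32.1% of all genes, and 13.6% and 51.8% in TPM. Trib1 and Trib2, pseudokinases of the same family as Trib3, went from 8.22 and 7.79 FPKM to 18.1 and 13.5 FPKM and from 14.5 and 14.1 FPKM to 25.8 and 21.2 FPKM. Trib1 had a log2 fold change of 0.88 (adjusted p = 0.0024) and Trib2 of 0.67 (adjusted p = 0.005). Trib1 and Trib2 were thus higher in R111A, as was Trib3, which entered the test only through its R111A libraries. In TPM Trib2 did not pass (log2 fold change 0.36, adjusted p = 0.062 from limma, its highest with all 4 libraries). Without WT replicate 2 the log2 fold change of Trib2 was 0.66. Nfe2l2 (NRF2) rose by 0.40 (adjusted p = 0.042), a call lost in TPM (adjusted p = 0.67, its highest), with no filter (adjusted p = 0.063) and without WT replicate 1 (adjusted p = 0.28) or WT replicate 2 (adjusted p = 0.31).

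Other genes known as ATF4 targets mostly fell, in the direction of Asns rather than Ddit3. Of 22 listed, 14 were tested, and 10 were lower and 3 higher by limma, with the same counts in TPM and a median log2 fold change of -0.98. Of all genes 32.1% were lower and 21.2% higher, and 51.8% and 13.6% in TPM. Of the 10 lower, Pycr1 had an R111A mean below 1 FPKM, and the median of the 13 others was -1.04. The lower ones were enzymes of amino acid and one-carbon metabolism, the tRNA exporter Xpot and the translation inhibitor Eif4ebp1. Phgdh, the first enzyme of serine synthesis, was at 223 and 237 FPKM in WT libraries, against 65.5 and 66.2 FPKM in R111A libraries (log2 fold change -1.79, SE 0.12, adjusted p = 1.5e-05 from limma). Got1, an aspartate aminotransferase, fell from 74.0 and 72.3 FPKM to 18.2 and 15.3 FPKM. Neither gene had overlapping groups, which was a condition for naming them. Psat1, the next enzyme of serine synthesis and named after its values were seen, fell as well, from 125 and 126 FPKM to 54.5 and 54.9 FPKM.

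The 3 higher targets were not enzymes of amino acid synthesis. Vegfa, an angiogenic factor, was at 1.15 and 1.07 FPKM in WT libraries, against 14.5 and 11.7 FPKM in R111A libraries (log2 fold change 2.74, SE 0.15, adjusted p = 7.6e-06). Ddit4 (REDD1), an inhibitor of mTORC1, went from 10.7 and 14.5 FPKM to 38.9 and 36.5 FPKM, a log2 fold change of 1.52 (adjusted p = 0.00013). Sesn2, which senses leucine upstream of mTORC1 and was named because it completes the 3, went from 3.89 and 3.43 FPKM to 12.9 and 9.60 FPKM.

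The tRNA synthetases were lower or did not pass the test. All 20 cytosolic tRNA synthetases tested had a log2 fold change below 0 in FPKM, as had 5661 of all 9831 genes. Sars was at 0.05 with median-of-ratios factors and at 0.19 after quantile normalization, where Cars was at 0.00. Sars and Wars reached 0.01 with a library left out. Of the 20 synthetases, 14 passed the threshold and 0 were higher, with a median of -0.64 beside -0.12 for all genes. Their medians were -0.97 in TPM, -0.54 under median-of-ratios factors and -0.42 under quantile normalization, with 20, 13 and 10 genes lower. Of all genes 32.1% were lower in FPKM, and 51.8%, 27% and 26.7% under these 3 scalings, with medians of -0.42, -0.03 and -0.04. Without WT replicate 1, 8 synthetases were lower, where 19.9% of all genes were. Mars1, for methionine, went from 98.5 and 97.8 FPKM to 43.8 and 40.4 FPKM, a log2 fold change of -1.20 (SE 0.13, adjusted p = 0.00011). Vars, Iars and Gars, for valine, isoleucine and glycine, had log2 fold changes of -0.90, -0.86 and -0.77. TGATGNAA was matched in 5 of the 13 synthetases with a window, 4 of 18 other ATF4 targets and 3 of 9 partners and co-regulators. In the remaining lists it was matched in 1 of 12 eIF2 genes and 2 of 22 other transporters. It was also matched in 1 of 16 genes of the XBP1 and ATF6 branches, and in 0 of 9 glutathione and NRF2 genes. The share was 4.51% of all genes with a window and 2.62% of the tested genes with a window.

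Other amino acid transporters went both ways, as the members did. Of 30 listed, 13 were tested, 5 were higher and 5 lower by limma, and their median was 0.00, against -0.23 in TPM, where all genes had 21.2% higher and 32.1% lower and medians of -0.12 and, in TPM, -0.42. Of the 5 higher, Slc3a1 and Slc7a3 had WT means below 1 FPKM and passed the filter through their R111A libraries, and the median of the 11 others was -0.08. With a filter at 5 FPKM, 7 were tested, 1 higher and 4 lower, with a median of -0.73. Under that filter 19.5% of all genes were higher and 34.2% lower, with a median of -0.15. The lower ones included the taurine carrier Slc6a6 (25.1 and 22.2 FPKM against 12.6 and 10.8 FPKM), the glutamine transporter Slc38a1 (47.3 and 44.2 FPKM against 22.7 and 25.6 FPKM), the aromatic amino acid transporter Slc16a10 (12.9 and 13.6 FPKM against 6.07 and 8.05 FPKM) and Slc7a6 (36.3 and 35.6 FPKM against 20.1 and 22.6 FPKM). None of these overlapped between groups, which was a condition for naming them. The 3 higher ones with both group means at 1 FPKM or more were named after their values were seen. Slc38a9 went from 1.31 and 1.28 FPKM to 3.26 and 4.54 FPKM, and Slc36a1 from 1.97 and 2.29 FPKM to 4.24 and 4.13 FPKM. Slc1a4 went from 4.25 and 4.60 FPKM to 6.47 and 7.03 FPKM and did not pass in TPM (adjusted p = 0.22 from limma). Slc38a2 (SNAT2), a known ATF4 target named after its values were seen, was at 39.2 and 34.9 FPKM in WT libraries, against 39.3 and 44.5 FPKM in R111A libraries and did not pass (log2 fold change 0.17, adjusted p = 0.32), with a log2 fold change of -0.16 in TPM. Slc3a1, the other heavy chain of the family and also named after its values were seen, was at 0.06 and 0.03 FPKM in WT libraries, against 3.36 and 3.25 FPKM in R111A libraries. Slc3a1, which passed the filter only through its R111A libraries, thus rose from near 0 and stayed far below Slc3a2.

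The other branches of the unfolded protein response moved mostly down. Of 19 genes of the XBP1 and ATF6 branches, 17 had a log2 fold change below 0, as had 5661 of all 9831 genes. By limma 10 were lower and 2 higher, with a median of -0.38, beside 32.1%, 21.2% and -0.12 for all genes. In TPM 16 were lower and 1 higher, beside 51.8% and 13.6% of all genes. With median-of-ratios factors 9 were lower and 2 higher, beside 27% and 24.3%. After quantile normalization they were also 9 and 2, beside 26.7% and 23.6%. The chaperone cofactors Sdf2l1 (57.8 and 64.7 FPKM against 23.0 and 20.7 FPKM), Hyou1 (77.3 and 69.6 FPKM against 34.1 and 28.4 FPKM) and Manf (242 and 265 FPKM against 114 and 120 FPKM) were lower in both R111A libraries. Hspa5 (BiP), the main chaperone of the endoplasmic reticulum and named after its values were seen, fell from 505 and 498 FPKM to 243 and 277 FPKM (log2 fold change -0.95, adjusted p = 0.00042). Dnajb9, a cochaperone of BiP, went against them, from 9.30 and 9.68 FPKM to 23.3 and 22.7 FPKM. Ern1, the other higher gene and named after its values were seen, went from 1.79 and 1.33 FPKM to 2.68 and 2.71 FPKM. Its log2 fold change was 0.54 (adjusted p = 0.016 from limma), and it did not pass in TPM (adjusted p = 0.12 from limma). Ddit3 and Ppp1r15a thus rose in libraries in which Hspa5, Hyou1 and Manf fell and Dnajb9 and Ern1 rose. A link between these changes was not tested.

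Glutathione and NRF2 genes, which adjoin Chac1 and Slc7a11 in function, showed 4 higher and 3 lower of 12 tested, and 3 and 6 in TPM, where all genes had 21.2% and 32.1%, and 13.6% and 51.8% in TPM. Of the 4 higher, Nqo1 had a WT mean below 1 FPKM. The median log2 fold change of the list was -0.01, and -0.04 without WT replicate 1, beside -0.12 for all genes in each fit. Srxn1, which repairs oxidized peroxiredoxins, had the largest change of the list, from 2.0 and 1.47 FPKM to 26.2 and 26.0 FPKM (log2 fold change 3.31, SE 0.15, adjusted p = 3.5e-06). Gpx1, a glutathione peroxidase, fell from 327 and 328 FPKM to 144 and 131 FPKM. Ggct and Gclm, of glutathione turnover and synthesis, were lower by 0.66 and 0.36 on the log2 scale (adjusted p = 0.041 and 0.046). Both calls were lost with no filter (adjusted p = 0.15 and 0.052), under median-of-ratios factors (adjusted p = 0.062 and 0.12) and under quantile normalization (adjusted p = 0.068 and 0.14), as well as without WT replicate 1 (adjusted p = 0.067 and 0.33) and without WT replicate 2 (adjusted p = 0.058 and 0.36). Ggct was also lost without R111A replicate 1 (log2 fold change -0.27, adjusted p = 0.053, against -1.05 without R111A replicate 2), and Gclm with the replicate number as a block (adjusted p = 0.056). Over the alternatives with all 4 libraries the adjusted p reached 0.15 for Ggct and 0.14 for Gclm. Gclc, also of glutathione synthesis and named after its values were seen, went from 24.8 and 23.3 FPKM to 31.6 and 30.8 FPKM. Its log2 fold change was 0.36 (adjusted p = 0.044 from limma), and 0.04 in TPM (adjusted p = 0.84 from limma).

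**Figure D4:**
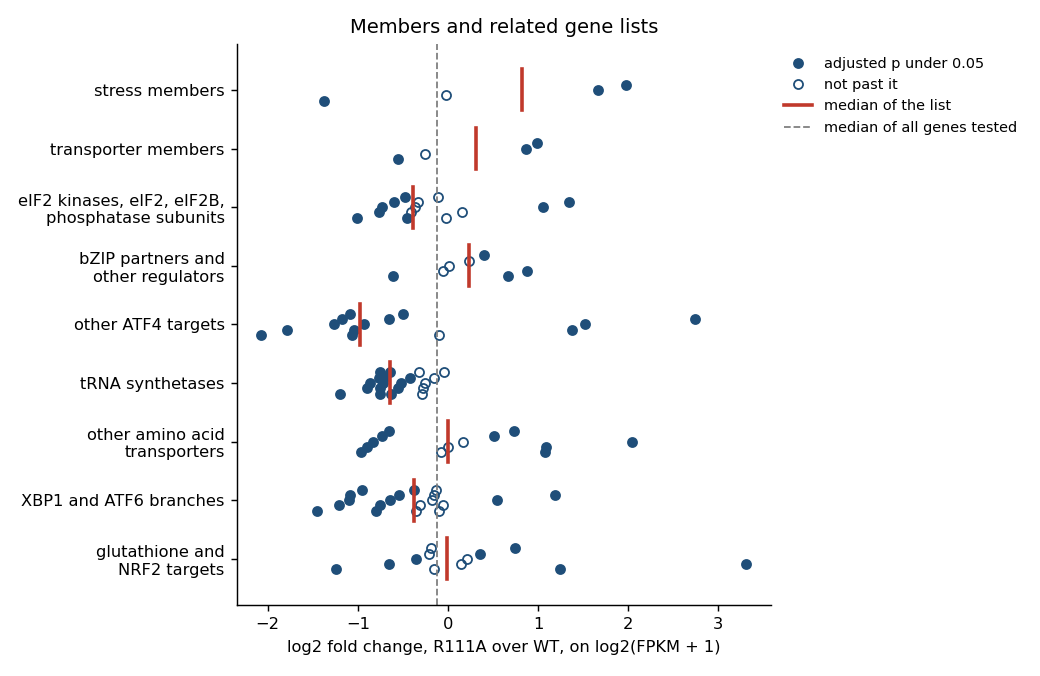
Log2 fold change of R111A over WT for the stress and transporter members tested and for 7 related gene lists, 1 point a gene, filled where the adjusted p was under 0.05 (limma). Red lines mark the median of each list and the dashed line that of all genes tested, at -0.12, with the other ATF4 targets at -0.98 and the tRNA synthetases at -0.64.

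Across the 4 libraries, the patterns most like those of Atf4 and Slc7a5 were found by the root mean square difference in centred log2(FPKM + 1). For Atf4 the 3 nearest genes were Inpp5e (difference 0.0060), Pgap6 (0.0098) and Mknk1 (0.0105), all with 4 values in a narrow band, as Inpp5e shows at 6.43 and 6.56 FPKM in WT libraries, against 6.52 and 6.28 FPKM in R111A libraries. For Slc7a5 they were Uba1 (0.0085), Ncoa6 (0.0272) and Nup210 (0.0279). Uba1, which encodes a ubiquitin-activating enzyme, was at 174 and 154 FPKM in WT libraries, against 135 and 92.0 FPKM in R111A libraries, with R111A replicate 2 the lowest, as for Slc7a5. A likeness over 4 libraries describes these values only.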

How the data were processed

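Activated CD4+ T cells from spleen gave 2 WT and 2 R111A RNA-seq libraries, grouped by their labels. Per the labels and methods, polyA RNA was sequenced, reads were aligned to mm10 with Bowtie2 (2.4.4) and expression was estimated with RSEM (1.2.28). The annotation is not given in the sources used here. The authors deposited FPKM values for 16142 genes, of which 1694 were at 0 in all libraries, and tested counts with DESeq2, which was not repeated since FPKM are not counts. Depth was compared from steps between 0.1 and 0.6 FPKM. At the 2 decimals deposited, 0.661% of tested genes had equal values in both WT libraries and 0.234% in both R111A libraries.

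The scale of testing was log2(FPKM + 1), and the tool limma (3.58.1, R 4.3.3, lmFit, eBayes with trend, Benjamini-Hochberg), after a run on simulated data. There all 4 libraries had the same spread for a gene, unlike the real ones, so that run does not give the rate of false calls here. Alternatives were other pseudocounts (0.1 or 5 FPKM), other filters (none, 5 FPKM or, chosen after seeing the data, 1 FPKM in each group), other scalings (TPM, quantile normalization, median-of-ratios factors), a block for the replicate number, eBayes robust or without its trend, and each library left out. The members and lists were chosen with earlier results of these data known. Genes named were the members, Zc3h12a, the eIF2 kinases, Ppp1r15a, Atf3, Atf5, Cebpb and Cebpg, and from each list up to 4 genes with the largest log2 fold change at an adjusted p under 0.05, a mean of at least 5 FPKM and groups that did not overlap, apart from those said to be named later. Of the cell type markers, 1 list is not reported here. Coordinates and promoters were from RefSeq (GRCm38.p6). Python 3.11.15, numpy 2.4.6 and pandas 2.3.3 were used.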

Additional observations from a re-analysis of the deposited data

How the results depend on the processing

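Ddit3, Trib3, Asns, Slc3a2 and Slc1a5 had the same direction and stayed past the threshold under each alternative in which they were tested, with the log2 fold change between 1.91 and 2.06 for Ddit3 and between -1.48 and -1.28 for Asns as each library was left out. With pseudocounts of 0.1 and 5 FPKM it was 2.34 and 0.78 for Trib3 and -1.84 and -0.68 for Asns, so with 5 FPKM neither was past 2-fold. Trib3 and Asns were not tested with a filter at 5 FPKM, nor Trib3 with a filter at 1 FPKM in each group, chosen after seeing the data. That filter left 9300 genes, 1783 higher and 3021 lower, with 3 members higher and 2 lower and a median of -0.02 for the members as for the stress members. Without WT replicate 1 or R111A replicate 2, the log2 fold change of Slc7a5 was -0.47 or -0.30. The count of lower members was 1 with no filter, a filter at 5 FPKM, median-of-ratios factors or quantile normalization. In these settings 19.8%, 34.2%, 27% and 26.7% of all genes were lower. In TPM the count was 4, where 51.8% of all genes were lower. With a filter at 5 FPKM Asns is no longer among the genes tested. For the other changes named here the cause was not tested.

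The number of genes called was 1335 higher and 5096 lower in TPM, and 1749 lower with the 2-fold threshold. With that threshold a pseudocount of 5 FPKM gave 386 higher and 402 lower, and a filter at 5 FPKM 521 higher. Leaving out each library gave from 1937 to 3790 lower genes. In these fits the lone library of a group is assumed to vary like the other group.

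The median of the members was 0.14 with no filter, where Chac1 and Slc7a11 enter it, 0.09 in TPM, 0.52 under median-of-ratios factors and 0.64 under quantile normalization. That of the stress members was 1.01 and 0.38 with pseudocounts of 0.1 and 5 FPKM, 0.09 with no filter, 0.98 with a filter at 5 FPKM, 0.56 in TPM and 0.72 to 0.93 with each library left out. That of the transporter members was 0.18 with no filter, -0.02 in TPM and 0.46 with quantile normalization.

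The log2 fold changes that changed sign were all close to 0 and not past the threshold in any scaling but TPM, where Atf4 and Eif2ak1 passed it. Their values were, in TPM, -0.30 for Atf3, -0.02 for Atf5, -0.07 for Eif2ak2 and -0.16 for Slc38a2. With median-of-ratios factors they were 0.07 for Atf4, 0.02 for Cebpg, 0.06 for Inpp5e, 0.05 for Mknk1 and 0.07 for Pgap6, and with quantile normalization 0.20 for Atf4, 0.03 for Cebpg, 0.00 for Eif2ak1 and Inpp5e and 0.08 for Mknk1. With each library left out they ran from -0.09 to 0.12 for Atf3, -0.20 to 0.08 for Cebpg, -0.24 to 0.02 for Eif2ak1, -0.04 to 0.00 for Inpp5e and -0.02 to 0.01 for Pgap6. Over the 801 pairs of a named gene and a setting, 729 kept direction and side of the threshold, 45 lost the call, 5 gained it and 22 changed sign.

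With the replicate number as a block, 2236 genes were higher and 3358 lower, and 4 members higher and 2 lower. The deviations of same-numbered libraries correlated at 0.111 across 9831 genes, which with 2 pairs does not show that the numbers pair the samples. FPKM hold no read counts, so counting error could not be set apart from the spread between libraries.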
